A study of Mus musculus with 29 samples.

Results

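Cortical area patterning factors are represented by 10 genes, chosen by name and with no threshold on their values: the nuclear receptors Nr2f1, Nr2f2 and Nr2e1, the DM-domain genes Dmrt3, Dmrta1 and Dmrta2, and the zinc finger genes Sp8, Sp9, Bcl11a and Bcl11b. All 10 were found among the 25239 genes listed for each RNA library, and all 10 passed the filter on low counts that left 15383 genes for testing. Poly(A) RNA came from mouse embryos of stage E11.5, in 4 groups of 2 libraries each: forebrain of wild-type embryos, forebrain of embryos carrying the hs267-853 knockout, midbrain of wild-type embryos, and midbrain of embryos carrying the hs654 knockout. Each library was made from tissue pooled from several embryos, so an error given here reflects spread between pools, not between embryos. It is estimated for each gene over all 4 groups together and also draws on the spread of other genes. The knockouts remove enhancers, not genes, and tissue and deletion differ together, since each deletion was studied in 1 tissue only. Strain and the sex of the embryos were not given in the sources used here.

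The cortex acquires its areas while it is still a sheet of dividing progenitors. Signalling centres at its edges secrete FGF, WNT and BMP proteins, and these set up opposing gradients of transcription factors across the sheet. Sp8 is known for promoting rostral identity, Nr2f1 and Nr2f2 for promoting caudal and, with Nr2f2, ventral identities, the Dmrt genes for the medial and caudal cortex, and Bcl11a and Bcl11b for the identity of the neurons made later. Several of these genes also act outside the cortex, in the olfactory system, the ganglionic eminences and other brain regions, so whole forebrain and whole midbrain mix many cell types. In such bulk tissue, fewer cells of a type and less RNA per cell cannot be told apart.

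The sequence just before the annotated start is shown for 2 pairs of close relatives, Sp8 with Sp9, whose windows share the longest run of bases among the 10 genes, and Dmrta1 with Dmrta2, 2 of the 3 DM-domain genes. The windows are the RefSeq promoters of GRCm38.p6, the build (mm10) named in the submitters' processing notes, and all 10 genes had at least 1 window (13 in all). The Sp8 and Sp9 windows shared a run of 15 identical bases on the same strand, shown in capitals, which holds the TCF/LEF core TTCAAAG. For Sp9 the window is chr2:73271676-73271925, plus strand. For Sp8 a stretch of 30 bases is shown, chr12:118847168-118847197, plus strand, which precedes an annotated start that lies inside the gene's span.
Sp9: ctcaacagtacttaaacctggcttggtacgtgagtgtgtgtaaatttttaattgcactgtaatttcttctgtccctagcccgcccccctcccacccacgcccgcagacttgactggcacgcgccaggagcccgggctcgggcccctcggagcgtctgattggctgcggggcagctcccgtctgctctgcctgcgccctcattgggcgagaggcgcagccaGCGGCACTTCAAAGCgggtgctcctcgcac
Sp8: cgcctccGCGGCACTTCAAAGCcggagagg

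Over the 74 pairs of windows from different genes of the 10, read on either strand, the longest identical run was 7 to 15 bases with a median of 9, and the next longest after the Sp8 and Sp9 run was 13. Between other relatives the longest run was 13 bases for Nr2f1 with Nr2f2, 11 for Dmrta1 with Dmrta2 and 9 for Bcl11a with Bcl11b. The TTCAAAG core occurs in 4.46% of all 32851 promoter windows and in 3 of the 13 windows of these genes, those of Sp8, Sp9 and Bcl11b. A match describes letters only and is not evidence that a factor binds there.

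For the DM-domain genes, the window of Dmrta2 (chr4:109977775-109977988, plus strand, up to the first annotated base of the gene) held 3 CCAAT boxes and 1 ACATTGT, the core bound by DM-domain proteins, all in capitals. The last bases of ACATTGT also match the core of Sox factors, ATTGT. Dmrta1 (chr4:89687948-89688197, plus strand) held neither motif.
Dmrta2: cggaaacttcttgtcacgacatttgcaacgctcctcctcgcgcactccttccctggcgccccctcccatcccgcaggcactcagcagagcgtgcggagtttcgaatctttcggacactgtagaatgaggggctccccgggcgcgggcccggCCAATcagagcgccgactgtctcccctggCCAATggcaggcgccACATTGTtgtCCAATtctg
Dmrta1: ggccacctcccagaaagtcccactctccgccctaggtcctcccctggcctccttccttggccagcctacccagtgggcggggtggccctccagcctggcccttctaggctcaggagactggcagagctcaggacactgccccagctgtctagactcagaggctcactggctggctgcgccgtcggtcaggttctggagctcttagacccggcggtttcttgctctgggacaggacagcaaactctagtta

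Searched on both strands, CCAAT occurs in 33.8% of all windows and in 7 of the 13 windows of these genes. ACATTGT occurs in 2.56% of all windows and in 1 of the 13, that of Dmrta2. The motif of Sp factors, GGGCGG, was found in 5 of the 13 windows and in 32.7% of all. The nuclear receptor half-site AGGTCA was found in 1 of the 13 and in 14% of all, the homeodomain core TAATTA in 1 and in 4.84% of all, and the core promoter element TATAAA in 1 and in 12.4% of all.

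The 8 libraries held 9051632 to 18024406 counts in genes. Levels below are in CPM, counts scaled to a common library size by TMM, which balances the libraries against each other, and 3 counts, taken as the limit that a count of 0 allows, equal 0.17 to 0.328 CPM. CPM is not corrected for transcript length, so levels were not compared between genes. The first principal component (72.1% of the variance) separated the tissues, and En2, a midbrain and isthmus gene, had no count in any forebrain library. Summed over 7 telencephalon markers, forebrain libraries measured 689 to 812 CPM and midbrain libraries 41.5 to 60 CPM. Forebrain knockout replicate 1 stood apart on the second component (6.33% of the variance, score -33.7 against -1.66 to 18.3 in the others), with the lowest mesenchyme and surface ectoderm sums of the 4 forebrain libraries. Results that turn on that library are given with it and without it.

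The first comparison asked whether these genes differ between wild-type forebrain and wild-type midbrain. At an adjusted p under 0.05 (edgeR's quasi-likelihood test, Benjamini-Hochberg over all 15383 genes), 9 of the 10 were higher in forebrain, 0 were lower, and Nr2f2 did not pass. Over all genes tested, 29.6% passed in either direction and 14.3% were higher in forebrain. The 10 genes had a median log2 difference of 1.55, beside 0.001 for all genes. The forebrain and midbrain libraries did not overlap for any of the 10 (9 higher, Nr2f2 lower), while 65.9% of all genes tested had no overlap. The genes are known for roles in the forebrain, so this direction is not independent evidence about them.

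**Figure D1:**
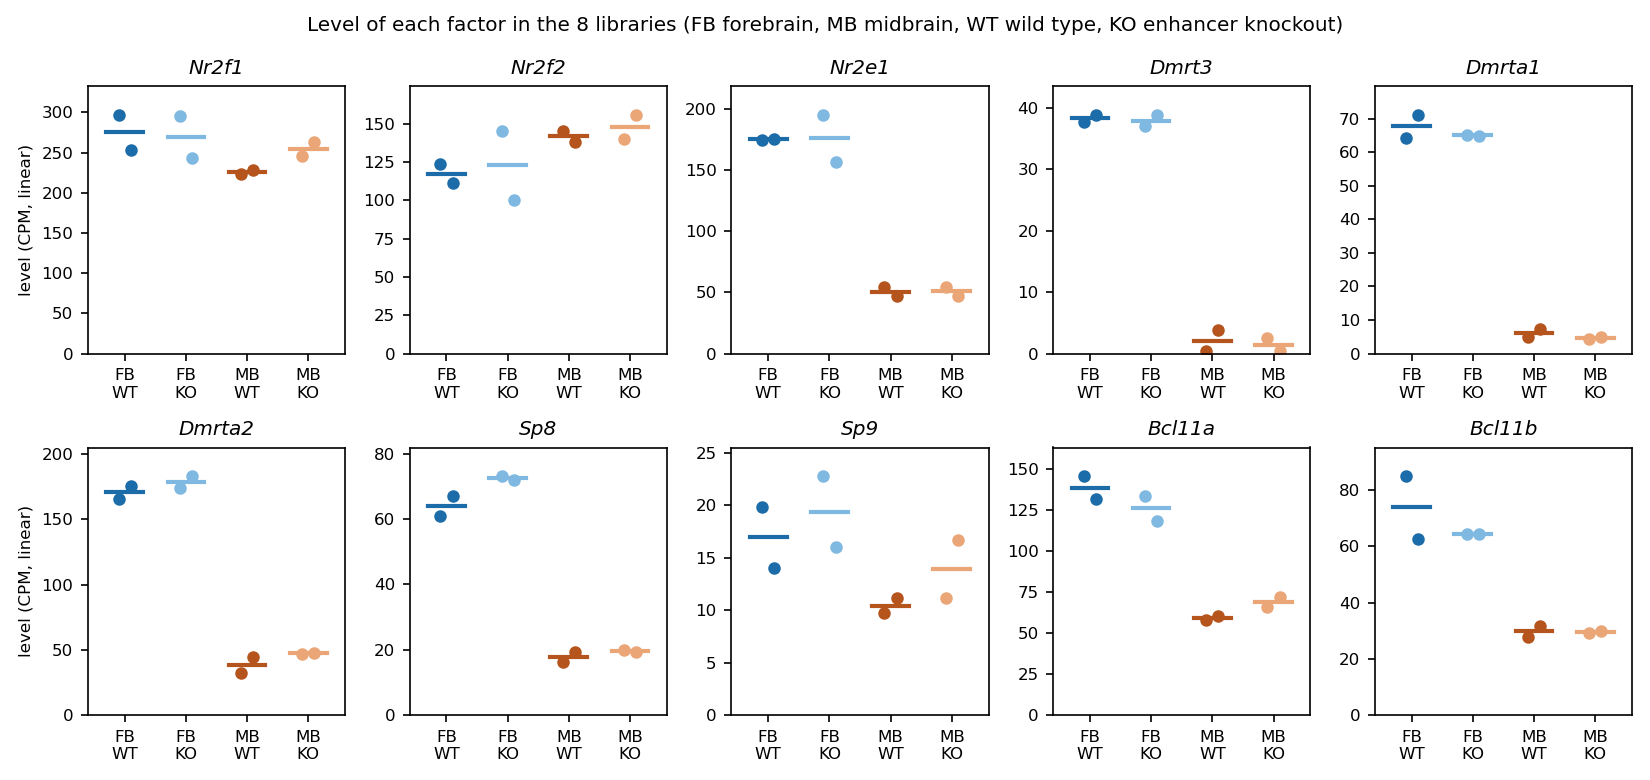
Level of each of the 10 genes in CPM (linear axis from 0, 1 panel per gene) in the 8 libraries, by tissue and genotype; points are libraries and bars are the means of 2. The forebrain libraries sit far above the midbrain libraries for the 3 DM-domain genes, Nr2e1 and Sp8, and close to them for Nr2f1, Nr2f2 and Sp9.

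The DM-domain genes, relatives of the fly sex-determination gene doublesex, had the largest tissue differences of the 10. Dmrt3 (chr19:25610246-25623921) is required for medial and caudal cortical identity together with Dmrta2. It measured 37.8 and 38.9 CPM in wild-type forebrain and 37 and 38.9 CPM in knockout forebrain. In midbrain it measured 0.38 and 3.83 CPM in the wild-type libraries and 2.5 and 0.437 CPM in the knockout libraries. The forebrain libraries were nearly level, while the midbrain libraries of each genotype held 1 high and 1 low value, from 6 and 48 counts in wild type and 29 and 4 counts in the knockout. The wild-type tissue difference was 4.30 on the log2 scale (SE 0.449, 19.7-fold, adjusted p = 1.16e-05). Leaving out the high library, midbrain wild-type replicate 2, gave 6.63, and leaving out the low one, replicate 1, gave 3.31, both past the threshold.

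Dmrta1 (chr4:89688198-89694766), whose product acts with Dmrta2 in pallial and olfactory neurogenesis, measured 64.4 and 71.3 CPM in wild-type forebrain. It measured 5 and 7.19 CPM in wild-type midbrain, a log2 difference of 3.49 (SE 0.143, 11.3-fold, adjusted p = 2.13e-09). The midbrain values stand on 46 to 90 counts a library, and unlike those of Dmrt3 they do not split into high and low libraries. Dmrta2 (chr4:109977989-109983691), needed for the cortical hem and the medial cortex, measured 165 and 176 CPM in wild-type forebrain and 32.2 and 44.6 CPM in wild-type midbrain. Its log2 difference was 2.16 (SE 0.112, adjusted p = 1.85e-08).

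The proportions within the DM-domain group differed with tissue too. Counts of Dmrta2 divided by counts of Dmrta1 were 2.47 to 2.82 in the 4 forebrain libraries and 6.21 to 11.1 in the 4 midbrain libraries, with no overlap. Since transcript length cancels only between libraries and not between genes, such a ratio can be compared across tissues but its size for 1 tissue has no direct meaning.

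Of the nuclear receptors, Nr2e1 (Tlx; chr10:42561963-42583590), which keeps neural progenitors dividing, measured 174 and 176 CPM in wild-type forebrain and 54 and 47.1 CPM in wild-type midbrain. The libraries lie well apart, with a log2 difference of 1.79 (SE 0.106, adjusted p = 5.78e-08). Nr2f1 (COUP-TFI; chr13:78188971-78198873) measured 297 and 253 CPM in wild-type forebrain and 223 and 228 CPM in wild-type midbrain. Its forebrain replicates differ from each other by more than the lower of them differs from midbrain. The log2 difference was 0.29 (SE 0.0905, adjusted p = 0.0299), and the call was lost without forebrain wild-type replicate 1 (0.17, adjusted p = 0.283), midbrain wild-type replicate 1 (adjusted p = 0.144) or 2 (adjusted p = 0.0784), or midbrain knockout replicate 2 (adjusted p = 0.0505).

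Nr2f2 (COUP-TFII; chr7:70351946-70366746) was the 1 gene of the 10 with a lower mean in forebrain. It measured 124 and 111 CPM in wild-type forebrain and 145 and 138 CPM in wild-type midbrain. The log2 difference was -0.27 (95% interval -0.55 to 0.007, adjusted p = 0.136). It passed as lower in forebrain without forebrain knockout replicate 1 (adjusted p = 0.00702) or 2 (adjusted p = 0.00656), libraries that enter this comparison only through the shared estimate of spread. Counts of Nr2f1 divided by counts of Nr2f2 were 2.04 to 2.42 in forebrain and 1.53 to 1.76 in midbrain, with no overlap.

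Nr2f1 and Nr2f2 each overlap an annotated long non-coding RNA. Since the strand setting of the counting is not given in the sources used here, reads of such overlapping genes cannot be told apart. A830082K12Rik, which overlaps Nr2f1, measured 44.4 and 35.4 CPM in wild-type forebrain and 36.6 and 30.9 CPM in wild-type midbrain (log2 difference 0.24, adjusted p = 0.21). B130024G19Rik, which overlaps Nr2f2, stayed at 2.73 to 5 CPM in all 8 libraries. Dmrta2 and Bcl11a also overlap annotated long non-coding RNAs, which were not analysed here.

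The zinc finger genes Sp8 and Sp9 belong to the Sp family of GC-box factors. Sp8 (chr12:118846288-118852578), which supports Fgf8 expression at the rostral edge of the cortex, measured 61 and 67 CPM in wild-type forebrain and 16.2 and 19.2 CPM in wild-type midbrain. The log2 difference was 1.86 (SE 0.104, adjusted p = 3.3e-08). Sp9 (chr2:73271926-73275771), best known from ganglionic eminence progenitors and striatal and interneuron fates, measured 19.8 and 14 CPM in wild-type forebrain and 9.68 and 11.1 CPM in wild-type midbrain. Its log2 difference was 0.71 (SE 0.23, adjusted p = 0.0334), and this call was lost without forebrain wild-type replicate 1 (0.44, adjusted p = 0.293) or without either midbrain wild-type library (0.61, adjusted p = 0.188, without replicate 1, and 0.81, adjusted p = 0.0672, without replicate 2). Sp8 and Sp9, which share the longest promoter run, had unequal tissue differences: counts of Sp8 divided by counts of Sp9 were 3.08 to 4.78 in forebrain and 1.15 to 1.79 in midbrain, with no overlap.

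Bcl11a (Ctip1; chr11:24076564-24173558) and Bcl11b (Ctip2; chr12:107910403-108004145) encode zinc finger repressors found in newborn neurons, the second a classic marker of subcerebral and striatal projection neurons. Bcl11a measured 146 and 132 CPM in wild-type forebrain and 58.2 and 60.6 CPM in wild-type midbrain, a log2 difference of 1.23 (SE 0.0828, adjusted p = 2.01e-07). Bcl11b measured 85 and 62.7 CPM in wild-type forebrain and 27.9 and 31.5 CPM in wild-type midbrain, a log2 difference of 1.32 (SE 0.126, adjusted p = 5.25e-06). Both were higher in forebrain although all 8 general neuron markers tested, Tubb3 and Dcx among them, were lower in forebrain (8 of 8 passed, median log2 difference -0.91). The ratio of Bcl11a to Bcl11b counts overlapped between the tissues (1.72 to 2.1 in forebrain, 1.92 to 2.41 in midbrain). Of 8 neural progenitor markers, 3 were higher in forebrain, 3 lower and 2 did not pass. The part of these cell types in the tissue differences was not tested.

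**Figure D2:**
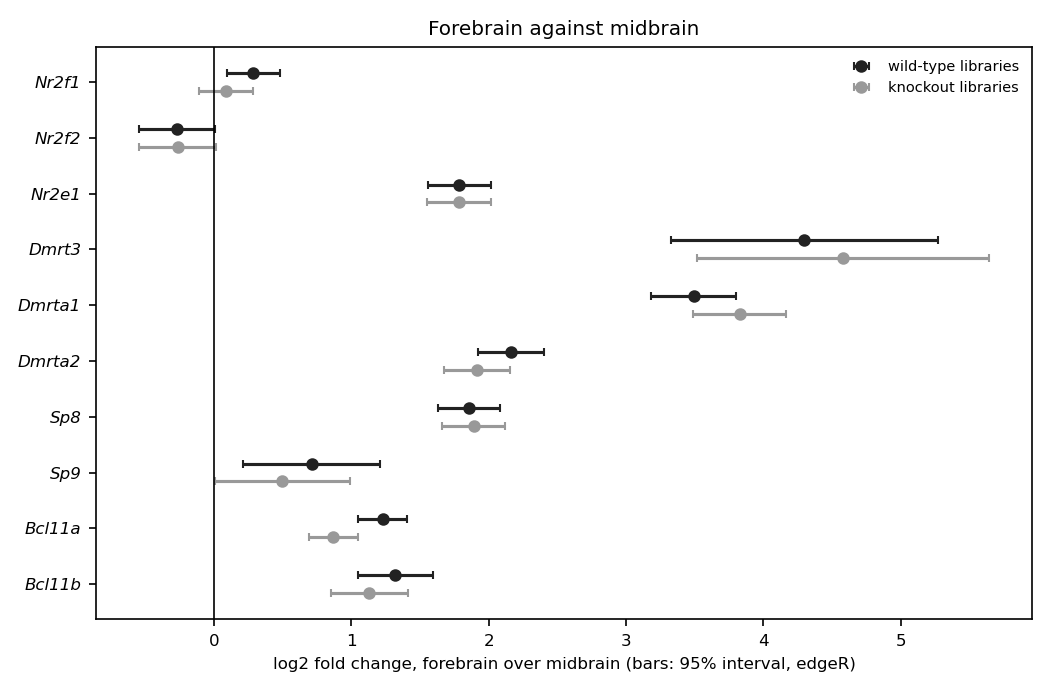
Log2 fold change of forebrain over midbrain for the 10 genes, in wild-type libraries (black) and in knockout libraries (grey); points are edgeR estimates and bars 95% intervals. The intervals of Nr2f2 reach 0 in both, and that of Nr2f1 in the knockout libraries only.

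The knockout libraries allow the comparison of the tissues in 4 other libraries, with the deletions differing between the tissues. The estimate of spread is shared with the wild-type comparison. Here 7 of the 10 genes were higher in forebrain and 0 lower, with a median log2 difference of 1.46 beside 0.017 for all genes. Of all genes tested, 29.4% passed in either direction and 14.6% were higher in forebrain. The libraries did not overlap for 7 of the 10, and for 64.4% of all genes. The values were 4.58 for Dmrt3, 3.83 for Dmrta1, 1.92 for Dmrta2, 1.89 for Sp8, 1.79 for Nr2e1, 1.13 for Bcl11b and 0.87 for Bcl11a. Dmrt3 again moved with 1 library, to 6.39 without midbrain knockout replicate 1 and to 3.92 without midbrain knockout replicate 2.

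Nr2f1, Nr2f2 and Sp9 did not pass between the knockout tissues, and their libraries overlapped. Nr2f1 measured 295 and 243 CPM in knockout forebrain and 245 and 263 CPM in knockout midbrain (log2 difference 0.09, adjusted p = 0.524). For Nr2f2 the values were 145 and 100.3 CPM in knockout forebrain and 139.6 and 156 CPM in knockout midbrain (log2 difference -0.26, adjusted p = 0.15). Without forebrain knockout replicate 1, which has the higher forebrain value, it was -0.55 and passed (adjusted p = 0.000166), and without forebrain knockout replicate 2 it was -0.02 (adjusted p = 0.885). Sp9 measured 22.7 and 16 CPM in knockout forebrain and 11.1 and 16.7 CPM in knockout midbrain (log2 difference 0.50, adjusted p = 0.123). It passed without forebrain knockout replicate 2 (0.73, adjusted p = 0.0212), and was 0.22 without forebrain knockout replicate 1 (adjusted p = 0.548). It was 0.20 without midbrain knockout replicate 1 (adjusted p = 0.659) and 0.81 without midbrain knockout replicate 2 (adjusted p = 0.0648).

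The hs267-853 comparison asked whether these genes change in forebrain with that knockout, whose label carries 2 numbers and does not tell whether 1 or 2 elements were deleted. None of the 10 passed in edgeR's quasi-likelihood test, none had an unadjusted p under 0.05, and DESeq2 and limma-voom called 0 as well. Of all genes tested, 0.013% passed and 4.78% had an unadjusted p under 0.05. The log2 differences ran from -0.20 for Bcl11b to 0.19 for Sp9, with a median of -0.003. The knockout and wild-type libraries were separate only for Sp8, beside 31.1% of all genes tested. Sp8 measured 73.1 and 72 CPM in knockout forebrain and 61 and 67 CPM in wild-type forebrain (log2 difference 0.18, 95% interval -0.02 to 0.38, adjusted p = 0.984). The summed diencephalon markers were higher in both knockout forebrain libraries (130.8 and 134.3 CPM) than in the wild-type ones (97.73 and 103.9 CPM). Sums of patterning signal and corepressor genes were higher too, those of macrophage and eye genes were lower, and the sums of all other lists overlapped. The part of any of these lists in the forebrain values was not tested.

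The intervals show what size of change these pools leave room for. For Nr2e1, with 195 and 157 CPM in knockout forebrain, the interval was -0.20 to 0.22 on the log2 scale. Dmrta2 measured 174 and 183 CPM in knockout forebrain, with an interval of -0.15 to 0.28, and Dmrta1 measured 65.3 and 65 CPM, with an interval of -0.30 to 0.18. Bcl11a had 134 and 118 CPM (interval -0.31 to 0.03) and Bcl11b 64.5 CPM in both libraries (interval -0.45 to 0.06). The widest interval was that of Dmrt3, -0.69 to 0.66, although its 4 forebrain libraries lay within 4.92 percentage points of each other. The fit takes 1 spread for all 8 libraries of a gene, and the midbrain libraries of Dmrt3 differ widely.

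The hs654 comparison asked the same in midbrain. Again 0 of the 10 genes passed in edgeR's quasi-likelihood test, with 0 also in DESeq2 and limma-voom. Of all genes tested 0% passed. An unadjusted p under 0.05 was found for 2 of the 10, Dmrta2 and Bcl11a, beside 3.96% of all genes, and the libraries were separate for 3 of the 10, Nr2f1, Dmrta2 and Bcl11a, beside 36.7% of all genes. In all 3 the knockout libraries were the higher ones.

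Dmrta2 measured 46.8 and 47.8 CPM in knockout midbrain, above the 32.2 and 44.6 CPM of wild-type midbrain. The log2 difference was 0.31 (95% interval 0.05 to 0.57, adjusted p = 0.992). It rests on midbrain wild-type replicate 1, without which it was 0.09, and it was 0.55 without midbrain wild-type replicate 2 (adjusted p = 0.112). Bcl11a measured 66.3 and 72.2 CPM in knockout midbrain and 58.2 and 60.6 CPM in wild-type midbrain (log2 difference 0.22, interval 0.03 to 0.41, adjusted p = 0.992). Nr2f1 measured 245 and 263 CPM against 223 and 228 CPM (log2 difference 0.17, interval -0.03 to 0.37). The summed neuron markers were also higher in both knockout midbrain libraries (3433 and 3544 CPM) than in the wild-type ones (3300 and 3128 CPM), and so were the summed diencephalon markers (485 and 517 CPM against 474 and 419 CPM). The same held for the sums of endothelial, surface ectoderm, corepressor and cortical transcription factor genes, while the sums of all other lists overlapped. Of single genes, 36.7% had no overlap in this comparison. The part of any of these lists in the values was not tested.

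For the other genes the knockout and wild-type midbrain libraries overlapped, with log2 differences from -0.39 for Dmrta1 to 0.41 for Sp9. Dmrta1 had 4.22 and 5.02 CPM in knockout midbrain, an interval of -0.83 to 0.05. Sp9 had 11.1 and 16.7 CPM, an interval of -0.11 to 0.93. Nr2e1 measured 54.4 and 47.4 CPM in knockout midbrain, Sp8 19.9 and 19.2 CPM, and Bcl11b 29 and 29.9 CPM, each close to its wild-type values. For Dmrt3 the interval was -1.92 to 1.31, so these libraries leave room for a change in either direction within that range.

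**Figure D3:**
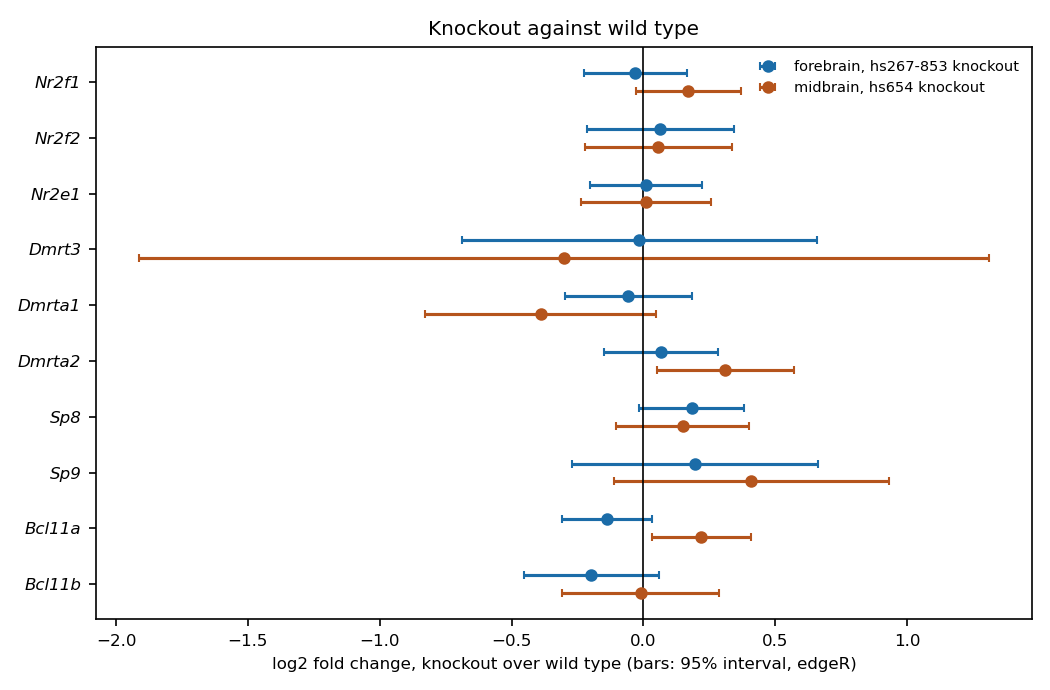
Log2 fold change of knockout over wild type for the 10 genes, for the hs267-853 knockout in forebrain (blue) and the hs654 knockout in midbrain (orange); points are edgeR estimates and bars 95% intervals. Only the midbrain intervals of Dmrta2 and Bcl11a leave out 0, before adjustment over all genes, and the midbrain interval of Dmrt3 is the widest.

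The knockout effect in forebrain minus the knockout effect in midbrain, which mixes tissue and deletion, was tested as an interaction. None of the 10 genes passed in edgeR (DESeq2 and limma-voom called 0 too), and 1 had an unadjusted p under 0.05. Of all genes tested, 0.0065% passed and 4.02% had an unadjusted p under 0.05. The 1 gene was Bcl11a, lower in the forebrain knockout (log2 difference -0.14) and higher in the midbrain knockout (0.22), a difference of -0.36 (SE 0.117, adjusted p = 0.996).

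Within midbrain, Dmrt3 varied with a set of genes of the developing cortex. Emx1, a pallial factor, measured 0.886 and 4.47 CPM in midbrain wild-type replicates 1 and 2, and 2.5 and 1.64 CPM in midbrain knockout replicates 1 and 2. In the same order, Eomes and Tbr1, which mark intermediate progenitors and early cortical neurons, gave 0.19, 2, 0.602 and 0.218 CPM and 0.696, 3.35, 1.46 and 0.437 CPM. All 3 genes and Dmrt3 were highest in midbrain wild-type replicate 2 and next in midbrain knockout replicate 1, the libraries being of different genotype.

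Taking those 2 libraries together over the other 2, Dmrt3 was 7.75 times as high, Eomes 6.37, Tbr1 4.25 and Emx1 2.76 times. Dmrta1 (1.14), Dmrta2 (1.14), Nr2e1 (1) and the subpallial genes Dlx1 (0.868) and Dlx2 (0.88) had ratios near 1 or below it, and Gsx2, a subpallial progenitor gene, had a ratio of 1.51 with its highest value in midbrain knockout replicate 1 but not its next in midbrain wild-type replicate 2. Emx2 (1.41), Gli3 (1.07) and Sp8 (1.1) had the same 2 libraries on top, by less. The libraries were chosen here after their Dmrt3 values were seen, so these ratios are a description without a test. In counts, Eomes over Dmrt3 was 0.241 to 0.521 in midbrain and 2.9 to 3.52 in forebrain, with no overlap. Tbr1 over Dmrt3 did not overlap either (0.586 to 1.83 in midbrain, 2.73 to 4.07 in forebrain). Emx1 over Dmrt3 did overlap, at 1 to 3.75 in midbrain and 1.35 to 1.55 in forebrain. The midbrain values stand on few counts. In midbrain wild-type replicates 1 and 2 and knockout replicates 1 and 2, Eomes had 3, 25, 7 and 2 counts. In the same order Dmrt3 had 6, 48, 29 and 4 counts and Gsx2 had 8, 4, 9 and 2, so their ratios are imprecise. The part of telencephalic tissue in the midbrain values of Dmrt3 was not tested.

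**Figure D4:**
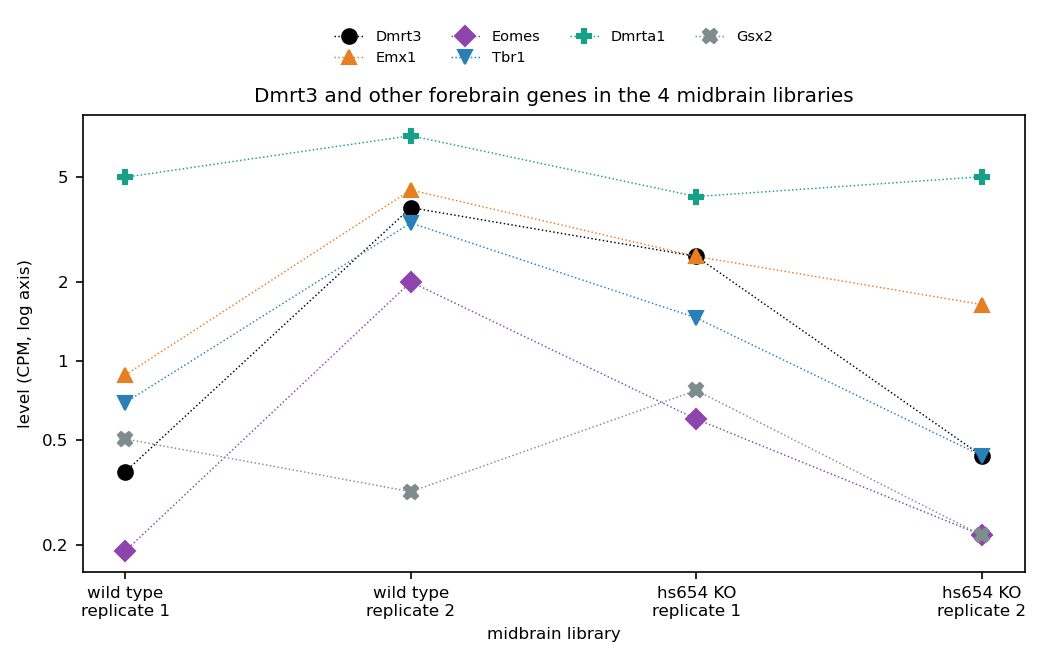
Level in CPM (log axis) of Dmrt3, Dmrta1 and 4 other forebrain genes in the 4 midbrain libraries; each line joins the libraries of 1 gene only to guide the eye. Dmrt3, Emx1, Eomes and Tbr1 are highest in wild-type replicate 2 and next in knockout replicate 1. Dmrta1 is also highest in wild-type replicate 2 but lowest in knockout replicate 1, and Gsx2 is highest in knockout replicate 1.

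Within forebrain the 10 genes fell into steadier and more variable ones. As a percentage of the mean of the 4 forebrain libraries, Dmrt3 ran from 97.1 to 102%, Dmrta2 from 94.7 to 105% and Dmrta1 from 96.8 to 107%. Sp9 ran from 77.2 to 125% and Nr2f2 from 83.6 to 121%. Both were highest in forebrain knockout replicate 1, the library that stood apart. Leaving that library aside, on the same mean, Sp9 ran from 77.2 to 109% and Nr2f2 from 83.6 to 103%. In both genotypes Sp9, Nr2f2, Nr2f1 and Bcl11a were higher in replicate 1 than in replicate 2, for Bcl11a 110 against 99.5% in wild type and 101 against 89.4% in the knockout, and for Sp9 109 against 77.2% in wild type and 125 against 88.1% in the knockout. The summed subpallial genes did likewise (104 against 87.5%, and 125 against 83.1%), and so did the summed neuron markers (106 against 92.3%, and 118 against 84%). Bcl11b departed from this order, with 123% in wild-type replicate 1 and 90.6 to 93.3% in the other 3 libraries. The summed mesenchyme genes departed from it in the knockout (124 against 98.3% in wild type, and 69.9 against 108%). So did the summed surface ectoderm genes (136 against 92.9%, and 31.7 against 140%). Replicate numbers tie no libraries together in the labels. The part of subpallial tissue, neurons, mesenchyme or surface ectoderm in the spread of the 10 genes was not tested.

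**Figure D5:**
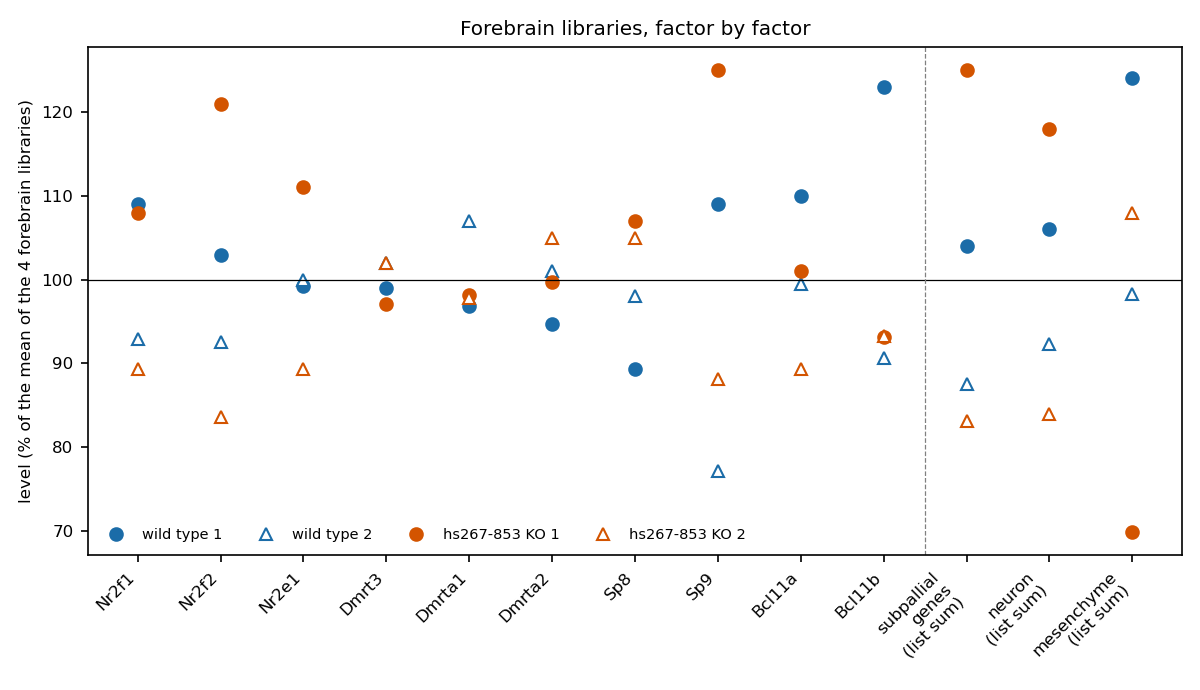
Level of each of the 10 genes, and of 3 summed gene lists, in the 4 forebrain libraries as a percentage of their mean (linear axis, line at the mean); filled circles are replicate 1, open triangles replicate 2. Dmrt3, Dmrta1 and Dmrta2 lie close to the mean line, while Sp9 and Nr2f2 spread as the subpallial and neuron sums do, each of them highest in knockout replicate 1. The mesenchyme sum is lowest in that library.

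Around these genes, other cortical transcription factors had the same direction: of 11 tested, 10 were higher in wild-type forebrain and 1 lower (median log2 difference 2.74). Eomes was higher by 6.86 and Tbr1 by 6.12 on the log2 scale. Among the family relatives, 12 of 15 had enough counts, and 3 were higher, 3 lower and 6 did not pass (median 0.003). The ubiquitous factors Sp1 (0.23) and Nr2c2 (0.20) were higher, as was Dmrt1, whereas Dmrtb1 (-1.34), the WNT target Sp5 (-0.47) and Nr2f6 (-0.44) were lower. Dmrt1, which ends 5.92 kb before Dmrt3, had 8 and 25 counts in wild-type forebrain and 0 and 3 in wild-type midbrain, too few for a fold to be given.

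Of the 10 nearest tested neighbours of these genes, 3 were higher in wild-type forebrain, 3 lower and 4 did not pass. Over all genes tested, 29.6% passed in either direction. Besides Dmrt1, the higher ones were Snx3 (0.42 on the log2 scale, 26.6 kb from Nr2e1) and Mtap (0.48, 507 kb from Dmrta1). Itgb8, an integrin gene 310 kb from Sp8, was lower in forebrain by -1.44, at 34.9 and 42.3 CPM against 115 and 94 CPM, so it had the opposite direction to Sp8. Cir1 beside Sp9 (-0.31) and Gm29683 beside Nr2f2 (-1.54, at 1.09 to 5.35 CPM) were lower too. Fam172a beside Nr2f1 (-0.10), Faf1 beside Dmrta2 (0.15), Papolg 181 kb from Bcl11a (-0.24) and Setd3 102 kb from Bcl11b (0.04) did not pass.

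Signals that pattern the cortex went both ways, with 5 of 13 higher, 3 lower and 5 not passing (median 0.42). The hem signals Wnt8b (2.49) and Wnt3a (1.62) and the roof signal Bmp4 (1.39) were higher in forebrain. Shh, the ventral signal, was lower by -3.69, with Wnt5a (-1.10) and Fgf15 (-0.83). Fgf8 did not pass (0.55, adjusted p = 0.161). Of 8 genes that respond to FGF, 4 were higher, namely Etv1 (1.14), Spry1 (0.91), Dusp6 (0.78) and Etv5 (0.71), and 4 did not pass (median 0.36).

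Of 12 subpallial genes, 7 were higher in forebrain, 3 lower and 2 did not pass (median 0.98). The largest differences were those of Gsx2 (5.35), Dlx2 (3.66) and Dlx1 (2.96), and Gsx1 (-2.41) and Gad1 (-0.89), which encodes an enzyme of GABA synthesis, were among the lower ones. Of 12 genes for corepressors that work with these factors, 2 were higher, 3 lower and 7 did not pass (median 0.052). Zfpm2 (FOG2), a partner of Nr2f2, was lower by -1.41, Hdac5 by -0.66 and Rere by -0.31, while Hdac1 (0.36) and Rcor1 (0.25) were higher. In both knockout comparisons and in the interaction, 0 genes of these 6 lists passed in edgeR. The smallest unadjusted p in these lists was 0.00303, for the DM-domain relative Dmrtb1 in midbrain. Dmrtb1 measured 15.7 and 16.3 CPM in knockout midbrain and 10.6 and 10.1 CPM in wild-type midbrain, with no overlap (log2 difference 0.63, adjusted p = 0.992). In forebrain the smallest unadjusted p was 0.00417, for Wnt7b (log2 difference 0.23, adjusted p = 0.852), and in the interaction it was 0.049, for Fgf15 (0.48, adjusted p = 0.996).

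Over the 8 libraries, each gene but Dmrt3 was set beside the gene whose log2 CPM followed it most closely among 11887 genes with a mean of at least 5 CPM. For Nr2e1 this was Fzd8, a WNT receptor (Pearson r = 0.998 over 8 libraries). Sp8 (r = 0.999) and Dmrta2 (r = 0.9971) both had Pfkl, which encodes a glycolytic enzyme, and Dmrta1 had Aprt (r = 0.9988), a purine salvage enzyme. Bcl11a had Sema5a (r = 0.9936) and Bcl11b had Sae1 (r = 0.9963). Nr2f1 had Eif1 (r = 0.9941), Nr2f2 had Map9 (r = 0.9911) and Sp9 had Ddx54 (r = 0.9599). The libraries form 2 tissue clusters, and the r values of Nr2e1, Sp8, Dmrta2, Dmrta1, Bcl11a and Bcl11b share that split. Nr2f1, Nr2f2 and Sp9 overlapped between the tissues over the 8 libraries, so their r values do not rest on that split alone. The number of genes with r above 0.95 was 732 for Dmrta1, 655 for Nr2e1, 650 for Sp8, 569 for Dmrta2, 443 for Bcl11b, 420 for Bcl11a and 231 for Dmrt3, and it was 17 for Nr2f2, 6 for Sp9 and 4 for Nr2f1. These r values describe the libraries and carry no test.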

How the data were processed

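RNA was measured in 8 libraries of E11.5 forebrain and midbrain, which their titles place in 4 groups. The 21 Hi-C samples of the series are not analysed here. The values are the raw counts per gene that the authors deposited, without normalization. The submitters' processing notes name STAR, HTSeq, DESeq2 and mm10, without versions, and the annotation and strand setting are not given in the sources used here. Rows that name no gene were left out. Reads assigned to genes were 40.7 to 44.1% of all reads that were assigned, outside features or ambiguous.

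Counts were scaled by TMM (factors 0.978 to 1.01) and filtered with filterByExpr. They were then tested with edgeR 4.0.16 in R 4.3.3, in 1 quasi-likelihood model over all 8 libraries with 1 mean for each group (4 residual degrees of freedom, biological coefficient of variation 7.62%). All tests are two-sided, and p-values were adjusted by Benjamini-Hochberg over 15383 genes (threshold 0.05). p-values rest on the spread between pools of the same group, estimated over all 4 groups and moderated by the spread of other genes. Counts of replicates differed by more than sampling noise in all 4 pairs. Log2 CPM for correlations used a prior count of 2. Alternatives tried were DESeq2 1.42.0, limma-voom (limma 3.58.1), upper-quartile or RLE scaling, a minimum mean of 50 counts, no filter, the 4 libraries compared alone, a replicate block, a prior count of 0.5, and leaving out each library. The tests per gene were tested on simulated data.

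The 10 genes and all gene lists were chosen with earlier results of these data known. Named from each list were up to 3 genes with the largest change each way among called genes averaging at least 1 CPM, or those with the smallest p where none passed. Also named were genes overlapping the 10, the nearest tested neighbour of each, and the gene most like each but Dmrt3. Promoters and coordinates are from RefSeq, GRCm38.p6. Values of 3 genes that the rule would name are not reported here, though the counts over lists include them.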

Additional observations from a re-analysis of the deposited data

How the results depend on the processing

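Of the 10 genes, 9 passed between the wild-type tissues, 7 to 10 under the alternatives, and 7 between the knockout tissues, 7 to 9 under the alternatives. In both knockout comparisons and their difference the number stayed 0 under every alternative run. With a replicate block these numbers were 9, 7, 0, 0 and 0. Replicate numbers are not tied to shared embryos or days in the labels, and deviations of same-numbered libraries correlated at -0.025 to 0.067. The number of all genes called was 2 for the hs267-853 knockout, and 161 without a filter, 13 in DESeq2, 1 in limma-voom, 1 with the 4 forebrain libraries alone and 1 to 209 with a library left out (209 without forebrain knockout replicate 2). For the hs654 knockout it was 0, and 22 without a filter, 1 with the 4 midbrain libraries alone and 0 to 8 with a library left out (8 without midbrain wild-type replicate 2). Between the wild-type tissues it was 4548, and 2816 to 5285 with a library left out (2816 without midbrain wild-type replicate 1). The causes were not tested. Without a filter, Nr2f2 also passed as lower in forebrain, in wild type (adjusted p = 0.00203) and knockout (adjusted p = 0.00165). Among 16 alternative fits, those with a library left out included, Nr2f2 passed in 4 between the wild-type tissues and in 2 between the knockout tissues. Between the knockout tissues Sp9 passed in 2 of the 16, so not only without forebrain knockout replicate 2.

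Values near 0 changed sign. The difference between the knockout effects for Nr2f2 was 0.008, and -0.006 with RLE scaling, -0.005 without a filter, -0.012 with a mean of at least 50 counts, -0.009 in DESeq2, -0.003 in limma-voom and -0.005 with a replicate block. Bcl11b in midbrain became 0.001 with a mean of at least 50 counts, and Nr2e1 in forebrain -0.002 with the 4 forebrain libraries alone. In limma-voom, Dmrt3 became 0.09 in midbrain and -0.107 in the difference. With 1 library left out, the forebrain knockout effects ran from -0.177 to 0.101 for Nr2f1, -0.228 to 0.303 for Nr2f2, -0.16 to 0.158 for Nr2e1, -0.05 to 0.02 for Dmrt3, -0.129 to 0.017 for Dmrta1, -0.088 to 0.472 for Sp9 and -0.398 to 0.041 for Bcl11b. Midbrain knockout effects ran from -0.023 to 0.147 for Nr2f2, -0.086 to 0.118 for Nr2e1, -2.121 to 2.027 for Dmrt3 and -0.097 to 0.077 for Bcl11b. The difference ran from -0.284 to 0.248 for Nr2f2, -0.169 to 0.148 for Nr2e1, -2.041 to 2.096 for Dmrt3, -0.09 to 0.156 for Sp8, -0.516 to 0.096 for Sp9 and -0.387 to 0.052 for Bcl11b. The knockout tissue difference of Nr2f1 ran from -0.059 to 0.22. Where this left 1 library in a group, that library was assumed to vary like the other groups.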
